A study of Mus musculus with 12 samples.

Results

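The constitutive proteasome subunits are the genes of the alpha ring (Psma), the beta ring (Psmb), the base ATPases (Psmc) and the regulatory non-ATPases (Psmd). Members were the protein-coding genes with one of these symbols and a number, without the immunoproteasome subunits Psmb8, Psmb9 and Psmb10. The rule found 36 of the 35275 genes in the table, and no measured value entered it. They were followed in whole lungs of male wild-type C57Bl/6J mice of 3, 6, 12 and 24 months of age, bred in the NCGG colony. Each age had 3 mice, each giving 1 poly(A) RNA-seq library, and the mice were analysed independently. The p-values set differences between ages against the spread between mice of an age, which the main fits estimated over all 12 libraries. In RNA of a whole organ, fewer cells of a type and less RNA per cell cannot be told apart.

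The proteasome degrades proteins that carry ubiquitin chains. Its barrel-shaped core stacks alpha and beta rings, with the alpha rings as gates and the protease sites inside the beta rings. A regulatory cap holds the base ATPases, which unfold substrates, and non-ATPase subunits, which bind and remove ubiquitin. Immune cells and cells exposed to interferon gamma exchange the catalytic beta subunits for the immunoproteasome forms. Subunits are needed in fixed proportions, and the transcription factor Nfe2l1 is known to raise them together when proteasomes are inhibited.

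Libraries held 14.7 to 21.2 M reads on genes. Those of 24 months stood apart from the other 9. Weighted by reads, gene GC content averaged 54.3, 54.5 and 56.0% at 24 months, against 50.3 to 51.7% elsewhere. Mitochondrially encoded genes took 0.443 to 0.629% of reads at 24 months and 1.65 to 2.14% at the other ages, except 3.12% in 12-month mouse 3. The median log2 fold change of all 16042 genes tested at 24 against 3 months was -0.29. Calls are against a log2 fold change of 0, and all 16 members called lower in the direct fit lay below -0.29, with Psma2 nearest to it at -0.51. Each comparison is therefore given from a direct edgeR fit and from a fit in which the trend of each library on GC content and gene length was removed first, called the corrected fit. The correction takes out any difference that follows GC content and length, whatever its source. Markers of lung cells were detected in every library. Those of type 2 pneumocytes summed to 22014 to 29360 CPM (scaled reads as a share of the library) at 24 months and 26669 to 31430 CPM at 3 months. Marker CPM are scaled to the library total alone. The CPM of subunits below are also divided by TMM factors, which were 0.521 to 0.826 at 24 months and 1.15 to 1.20 at 3 months. On the scale of the subunits, 24-month marker levels would stand higher against those of 3 months. Plasma cell markers summed to 2312 to 2997 CPM at 24 months and 209 to 271 CPM at 3 months, with 6 of 6 detected. Alveolar macrophage markers summed to 104 to 131 CPM at 24 months and 693 to 814 CPM at 3 months, with 4 of 4 detected. The part of these differences in the results on subunits was not tested.

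Of the 36 members, 34 were expressed in lung at all ages. Psmb11, the beta subunit of the thymic cortex, had 0 reads in all 12 libraries, where 3 reads would make 0.141 to 0.204 CPM on library totals. Psma8, the alpha subunit of the testis, had 0 to 17 reads a library. It passed the filter on low reads and no comparison called it. Of the 3 testis markers, Tnp1 and Prm2 were at 0 reads and Prm1 reached at most 0.065 CPM, in a 6-month mouse. The share of all gene reads that fell on members was 0.323, 0.250 and 0.263% at 3 months, 0.287, 0.269 and 0.278% at 6 months, 0.323, 0.337 and 0.357% at 12 months and 0.235, 0.217 and 0.164% at 24 months. All 3 of the 24-month mice were below every younger mouse on this share. The 12-month mice were the highest, with mouse 1 level with 3-month mouse 1. The share is of library totals. On that scale the median log2 fold change at 24 against 3 months was -1.001 over all tested genes and -0.88 over the members.

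Per length and before correction, the 34 expressed members lay closer together in young lung than in lung of 24 months. In FPKM (reads scaled to gene length and library total), the highest member exceeded the lowest 9.70 to 10.8 times in the 3-month mice, 9.85 to 10.2 times at 6 months and 12.4 to 14.9 times at 12 months. At 24 months the same ratio was 47.2, 48.7 and 122. Over the members, log2 FPKM had an SD of 1.57, 1.59 and 1.86 at 24 months, against 0.83 to 0.91 at 3 months. Psmb1, a non-catalytic beta subunit, was the highest member in all 6 mice of 3 and 6 months, at 93.8 to 134 FPKM. At 24 months Psmb6 was highest in mouse 1 and Psmb5 in mice 2 and 3. Beta ring genes had a median of 82.1, 73.3 and 68.1 FPKM in the 24-month mice and 83.6, 58.5 and 71.4 FPKM in the 3-month mice, which overlap. Alpha ring genes had a median of 22.9, 19.7 and 10.3 FPKM in the 24-month mice and 79.0, 56.6 and 60.3 FPKM in the 3-month mice, which do not. FPKM are relative to the library total and carry no scaling factor, and the GC content of the members spans 37.0 to 57.4%. The spread of FPKM over all genes was not computed. Log2 folds at 24 against 3 months had an SD of 1.27 over the 35 tested members and 2.06 over all tested genes in the direct fit. In the corrected fit these were 0.92 and 1.18, so the members spread less than all genes in both.

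**Figure D1:**
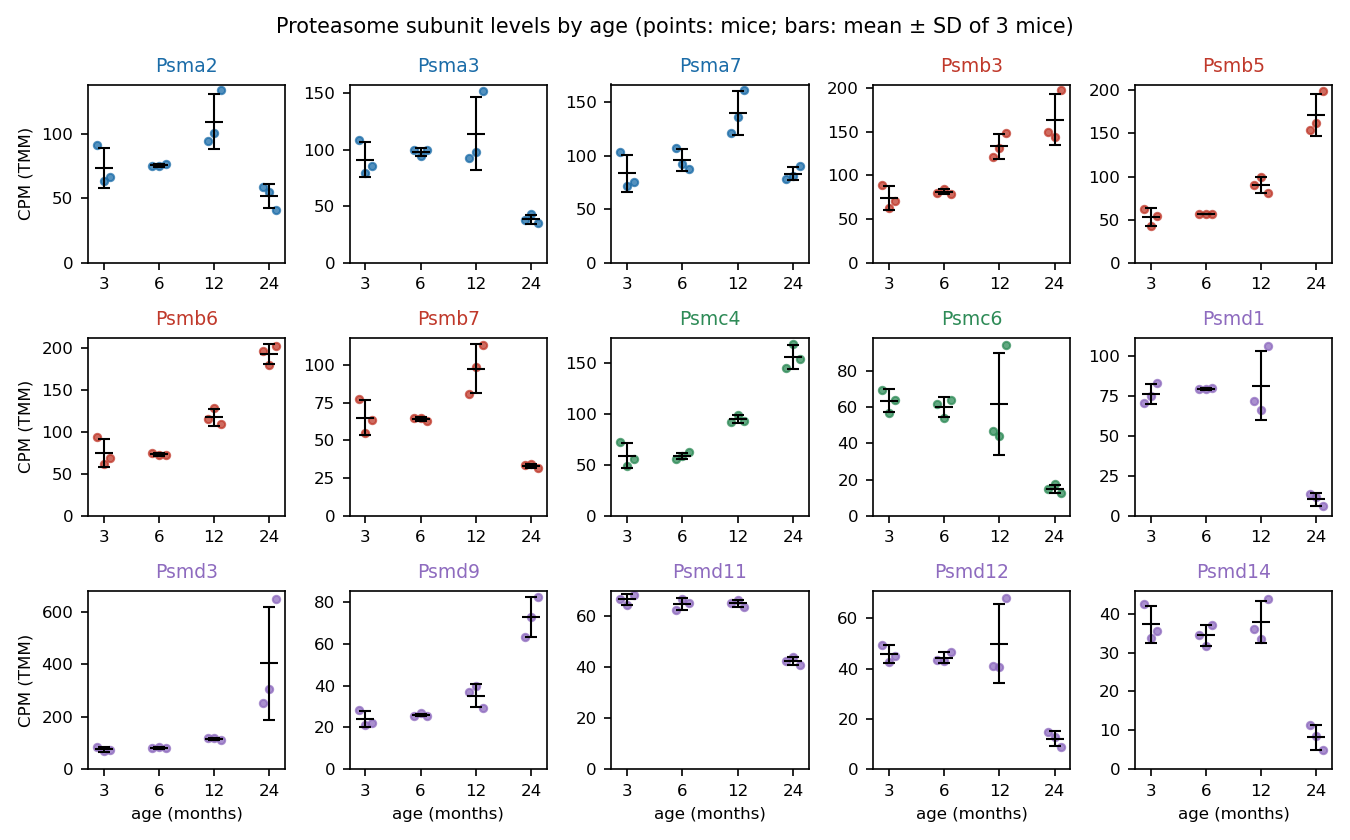
Levels of 15 subunits in CPM (TMM-scaled, linear axes from 0) against age in months. Points are mice, bars the mean ± SD of 3 mice, and colours the subcomplex. Psmb5, Psmb6, Psmc4, Psmd3 and Psmd9 lie above the 3-month mice at both 12 and 24 months, while Psmc6, Psmd1, Psmd12 and Psmd14 fall to their lowest levels at 24 months.

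At 24 against 3 months the beta ring rose as a majority and Psmb7 fell. In the direct fit 5 of its 7 tested genes rose and 1 fell, with a median log2 fold change of 0.79, and in the corrected fit 6 rose and 1 fell, with a median of 0.58. With library totals as the scale, on which the median of all genes was -1.001, Psmb5 and Psmb6 rose, Psmb1 (-0.80) and Psmb7 (-1.70) fell and the other 3 did not pass. Over all 35 tested members 11 rose (31.4%), 16 fell (45.7%) and 8 did not pass. These shares were near the background of all tested genes, of which 38.2% were called higher and 44.6% lower. With the correction 15 rose (42.9%) and 10 fell (28.6%), where 30.3% of all tested genes were called higher and 27.6% lower. Without 3-month mouse 3 the direct count that rose was 7. Of the members, 8 rose in both fits and 6 fell in both, 5 fell in the direct fit and rose in the corrected one, and Psmd8 did the reverse. Such counts were not made over all tested genes, so they are not read as particular to the members.

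Psmb5 (chr14:54614120-54617995, mm10), the chymotrypsin-like protease, rose. Its level was 62.9, 42.4 and 54.0 CPM at 3 months, 56.7, 56.97 and 56.97 CPM at 6 months, 89.9, 99.8 and 81.1 CPM at 12 months and 154, 162 and 199 CPM at 24 months. All 12-month mice were above all younger mice, and all 24-month mice above all 12-month mice. The log2 fold change at 24 against 3 months was 1.69 ± 0.20 (SE, edgeR adjusted p = 1.5e-06) in the direct fit and 0.49 ± 0.11 (edgeR adjusted p = 0.0016) in the corrected fit. Corrected levels were 103, 102 and 90.3 CPM at 24 months and 72.6, 62.2 and 75.9 CPM at 3 months, which did not overlap. The correction took out more than it left of the direct difference.

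Psmb6 (chr11:70525367-70527858), the caspase-like protease, rose by a similar amount in both fits. It had 93.4, 62.2 and 69.3 CPM at 3 months, 75.1, 72.3 and 72.0 CPM at 6 months, 115, 129 and 109 CPM at 12 months and 197, 179 and 203 CPM at 24 months. Again no 12-month mouse overlapped the younger mice, and no 24-month mouse the 12-month mice. Its direct fold at 24 against 3 months was 1.36 ± 0.19 on the log2 scale (edgeR adjusted p = 8.5e-06), and 1.15 ± 0.11 in the corrected fit (edgeR adjusted p = 1.8e-06).

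Psmb7 (chr2:38588036-38644087), the trypsin-like protease, fell at 24 months. It had 77.3, 54.9 and 63.2 CPM at 3 months, 64.7, 65.1 and 62.9 CPM at 6 months, 80.6, 98.4 and 113 CPM at 12 months and 33.6, 34.4 and 31.5 CPM at 24 months. The 24-month mice were all below the others, and the 12-month mice were all above. At 24 against 3 months this gave a log2 fold change of -0.97 ± 0.19 (edgeR adjusted p = 0.00021), and -0.36 ± 0.12 in the corrected fit (edgeR adjusted p = 0.022). It shares 6 bp with Nek6 on the opposite strand.

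Of the non-catalytic beta subunits, Psmb3 rose most. It had 88.9, 62.3 and 70.6 CPM at 3 months, 79.6, 84.7 and 79.1 CPM at 6 months, 121, 131 and 149 CPM at 12 months and 150, 144 and 197 CPM at 24 months. Both older ages lay above both younger ages, and they overlapped each other. Its log2 fold change at 24 against 3 months was 1.15 ± 0.20 directly and 1.61 ± 0.18 corrected (edgeR adjusted p = 6.9e-05 and 4.4e-06). Psmb2 (0.73 ± 0.18, and 0.58 ± 0.11 corrected) and Psmb4 (0.79 ± 0.21, and 0.42 ± 0.13 corrected) rose in both fits. Psmb1 had -0.06 ± 0.20 directly (edgeR adjusted p = 0.77) and rose in the corrected fit by 1.16 ± 0.13.

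**Figure D2:**
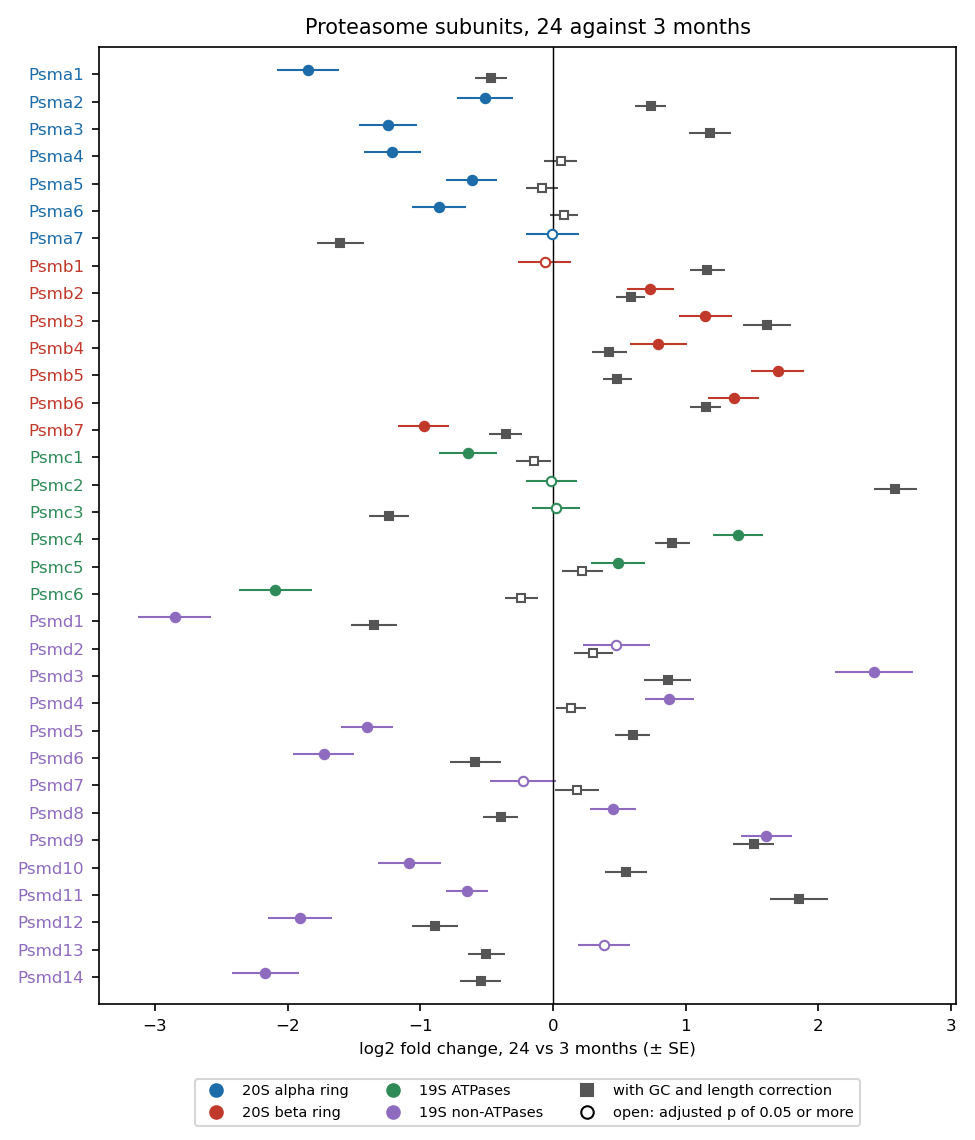
Log2 fold change at 24 against 3 months of 34 subunits (Psma8 and Psmb11 are left out), as estimate ± SE from the fits on all 12 libraries, with 3 mice an age. Coloured circles are the direct fit, grey squares the corrected fit, and open symbols had an adjusted p of 0.05 or more. All beta ring genes except Psmb7 lie at or above 0.42 in the corrected fit, and all alpha ring circles lie below 0.

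The immunoproteasome subunits, which take the places of the catalytic subunits, rose at 24 months in both fits. Psmb8, which replaces Psmb5, had 110, 137 and 161 CPM at 24 months and 36.3, 22.4 and 23.0 CPM at 3 months (log2 fold change 2.32 ± 0.23, and 1.74 ± 0.17 corrected). Psmb9, which replaces Psmb6, had 2.03 ± 0.26 directly and 0.81 ± 0.18 corrected. Psmb10, which replaces Psmb7, had 2.28 ± 0.24 directly and 0.85 ± 0.11 corrected. The highest edgeR adjusted p of these 6 folds was 0.0014. Of all tested genes, 38.2% were called higher directly and 30.3% in the corrected fit. At 50% GC and above, where these genes lie, 68.8% of genes were called higher directly and 34.9% in the corrected fit.

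The ratio of each pair shows how the exchange partners stood to each other per length. Psmb10 over Psmb7 was 4.86, 5.98 and 9.32 in FPKM in the 24-month mice and 0.733, 0.712 and 0.638 in the 3-month mice. From corrected levels it was 2.32, 2.54 and 2.29 at 24 months and 1.06, 1.08 and 0.963 at 3 months. The ages did not overlap on either scale, and the corrected gap was smaller. Psmb8 over Psmb5 was 0.361 ± 0.030 in FPKM at 24 months and 0.233 ± 0.035 at 3 months (SD, n = 3), and 0.483 ± 0.127 and 0.1997 ± 0.039 from corrected levels. Psmb9 over Psmb6 was 0.196 ± 0.059 at 24 months and 0.123 ± 0.020 at 3 months in FPKM, but 0.111 ± 0.022 and 0.140 ± 0.022 from corrected levels. The direction of this last pair therefore turned with the correction, and its ages overlapped on both scales. An exact permutation test of 3 mice against 3 cannot go below p = 0.1, so the ratios are given without a test.

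**Figure D3:**
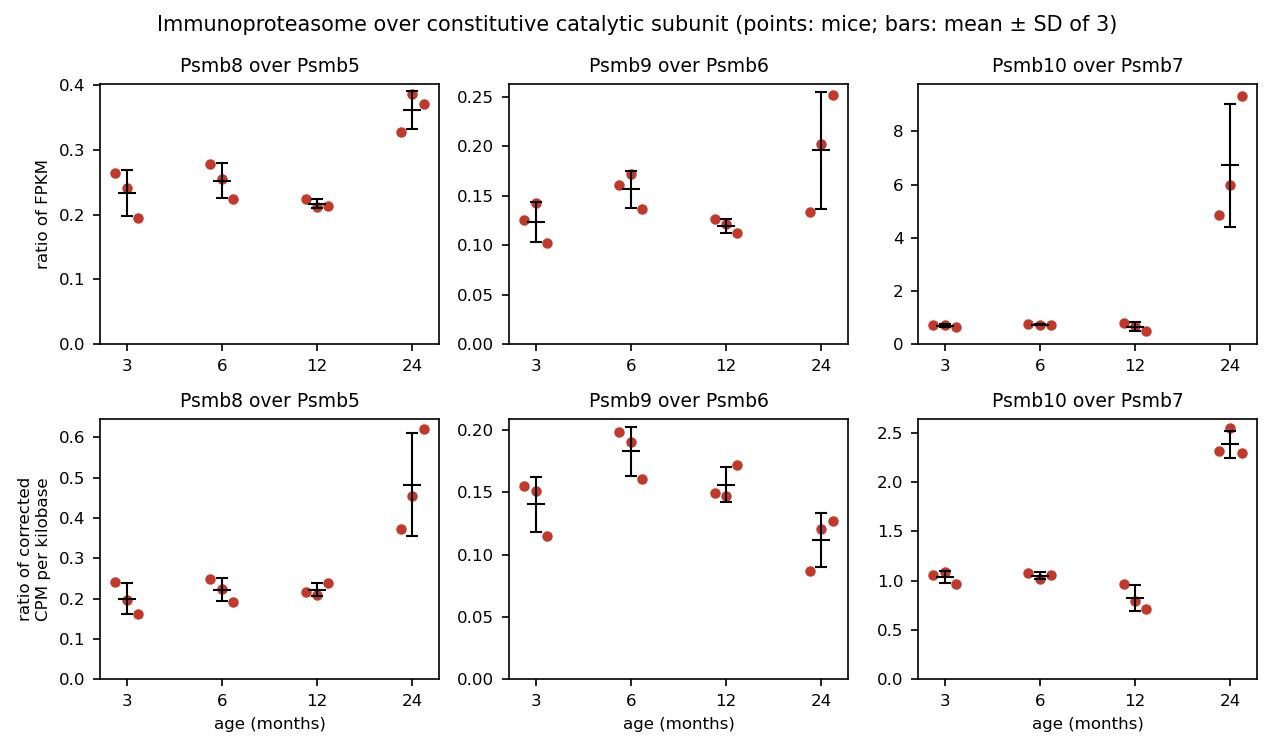
Ratio of each immunoproteasome subunit to the catalytic subunit it replaces, by age in months, from FPKM (top) and from corrected CPM per kilobase (bottom), on linear axes from 0. Points are mice and bars the mean ± SD of 3 mice. Psmb10 over Psmb7 is above 2 in all 24-month mice and below 1.1 in all younger mice on both scales, while Psmb9 over Psmb6 moves up in the top row and down in the bottom row.

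The alpha ring, which forms the gate of the core, was lower at 24 months in the direct fit. Of its 8 tested genes 6 fell, none had a log2 fold change above 0, and the median was -0.97, where 44.6% of all tested genes were called lower and their median was -0.29. After correction 2 rose and 2 fell, near the 30.3% and 27.6% of all genes, and the median was 0.07. Psma1 fell in both (-1.85 ± 0.23, and -0.47 ± 0.12 corrected). Psma4, Psma5 and Psma6 fell in the direct fit (-1.21, -0.61 and -0.86), and their corrected values of 0.06, -0.08 and 0.08 did not pass. Psma7, the member richest in GC at 57.4%, had -0.01 ± 0.20 directly and fell by 1.60 ± 0.18 on the log2 scale in the corrected fit.

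Psma2 and Psma3 fell in the direct fit and rose in the corrected fit. Psma2 had 91.5, 63.4 and 66.5 CPM at 3 months, 75.3, 75.1 and 76.7 CPM at 6 months, 94.4, 101 and 134 CPM at 12 months and 59.1, 55.1 and 41.0 CPM at 24 months. Its log2 fold change at 24 against 3 months was -0.51 ± 0.21 directly and 0.74 ± 0.12 corrected. Psma3 had 109, 79.2 and 85.5 CPM at 3 months, 100.01, 94.0 and 99.7 CPM at 6 months, 92.7, 98.1 and 152 CPM at 12 months and 37.8, 42.9 and 35.0 CPM at 24 months. Its log2 fold change was -1.24 ± 0.22 directly and 1.18 ± 0.16 corrected. For both genes the 24-month mice lay below all others before correction. Psma3 overlaps the antisense gene 3110056K07Rik over 4733 bp, which held 892 reads in all libraries against 19843 on Psma3.

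The 6 base ATPases, which thread substrates into the core, had 2 genes that rose and 2 that fell at 24 against 3 months in the direct fit. After correction 2 rose and 1 fell. The direct shares of 33.3% each way were near the 38.2% and 44.6% of all genes, and the corrected ones of 33.3% and 16.7% near 30.3% and 27.6%. Psmc4 rose in both fits. It had 73.2, 48.8 and 56.0 CPM at 3 months, 56.3, 58.9 and 62.4 CPM at 6 months, 92.0, 99.6 and 93.6 CPM at 12 months and 145, 169 and 154 CPM at 24 months. Each step from 6 to 12 and from 12 to 24 months separated the mice. Psmc4 thus had a log2 fold change at 24 against 3 months of 1.40 ± 0.19, and 0.90 ± 0.13 corrected (edgeR adjusted p = 5.5e-06 and 4.9e-05).

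Psmc6, the member with the lowest GC content (37.0%), fell in the direct fit alone. It had 69.6, 56.9 and 63.97 CPM at 3 months, 62.0, 53.9 and 64.1 CPM at 6 months, 47.0, 43.9 and 94.3 CPM at 12 months and 14.7, 17.4 and 12.4 CPM at 24 months. The 24-month mice were far below all others, and 12-month mouse 3 was the highest of all. Against 3 months the 24-month log2 fold change was -2.09 ± 0.27 (edgeR adjusted p = 3.8e-06) and -0.24 ± 0.13 corrected (edgeR adjusted p = 0.12). Psmc1 also fell in the direct fit alone (-0.64 ± 0.22), and Psmc5 rose in it alone (0.49 ± 0.20). Psmc2 and Psmc3 had -0.01 ± 0.19 and 0.02 ± 0.18 directly, and 2.58 ± 0.16 and -1.24 ± 0.15 corrected. Psmc3 overlaps Slc39a13 on the opposite strand over 4579 bp, with 12858 reads on that gene and 27978 on Psmc3 in all libraries, and no source used here gives the strand setting of the counting.

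Of the 14 non-ATPase genes, 4 rose and 7 fell at 24 against 3 months in the direct fit, with a median of -0.44. These were 28.6% and 50% of the 14, near the 38.2% and 44.6% of all tested genes. In the corrected fit 5 rose (35.7%) and 6 fell (42.9%), where 30.3% and 27.6% of all genes were called, with a median of 0.16. They held both the largest rise and the largest fall among the members in the direct fit.

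Psmd3 (chr11:98682554-98695979), a lid subunit, rose most in the direct fit. It had 85.3, 69.1 and 71.4 CPM at 3 months, 81.5, 86.1 and 78.8 CPM at 6 months, 117, 118 and 110 CPM at 12 months and 253, 307 and 651 CPM at 24 months. Mouse 3 of 24 months, the one with the highest weighted GC content, stood far above the other 24-month mice. Its log2 fold change was 2.42 ± 0.29 (edgeR adjusted p = 1.9e-06), and 0.86 ± 0.17 corrected (edgeR adjusted p = 0.00072).

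Psmd9, which is known as a chaperone of base assembly and not as a subunit of the finished particle, rose almost equally in both fits. It had 28.2, 21.2 and 22.2 CPM at 3 months, 25.6, 26.7 and 25.4 CPM at 6 months, 36.8, 39.6 and 29.3 CPM at 12 months and 63.3, 72.8 and 82.2 CPM at 24 months. The 24-month mice were above all others, and the 12-month mice above all younger mice. Psmd9 had a log2 fold change of 1.61 ± 0.19, and 1.51 ± 0.15 corrected (edgeR adjusted p = 1.8e-06 and 2.1e-06). The other assembly chaperones among the members, Psmd5 and Psmd10, fell in the direct fit and rose in the corrected fit. Psmd5 had 36.4, 33.4 and 36.4 CPM at 3 months, 38.0, 41.7 and 42.2 CPM at 6 months, 37.2, 42.3 and 51.4 CPM at 12 months and 16.1, 13.0 and 11.001 CPM at 24 months. Its 24-month mice were the lowest, with a log2 fold change of -1.40 ± 0.20 directly and 0.60 ± 0.13 corrected. Psmd5 overlaps Cutal on the opposite strand over 573 bp, with 2336 reads on that gene and 7769 on Psmd5 in all libraries. Psmd10 had -1.08 ± 0.24 directly and 0.55 ± 0.16 corrected.

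Psmd1 (chr1:86064387-86139151), a scaffold of the base, showed the largest fall among the members in the direct fit. It had 70.8, 74.8 and 82.8 CPM at 3 months, 79.0, 79.0 and 79.9 CPM at 6 months, 71.6, 66.4 and 106 CPM at 12 months and 13.4, 12.1 and 5.85 CPM at 24 months. The younger ages overlapped one another and every 24-month mouse was far below them. The log2 fold change at 24 against 3 months was -2.85 ± 0.28 (edgeR adjusted p = 2.9e-07), and -1.35 ± 0.18 corrected (edgeR adjusted p = 1.8e-05). Psmd1 overlaps Htr2b on the opposite strand over 12945 bp, which held 223 reads in all libraries against 14832 on Psmd1. It also overlaps the protein-coding gene Gm21972 on the same strand over 5515 bp, which held 0 reads.

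Psmd14, the lid enzyme that cuts ubiquitin chains off substrates, also fell in both fits. It had 42.5, 33.7 and 35.5 CPM at 3 months, 34.6, 31.6 and 37.0 CPM at 6 months, 36.1, 33.5 and 43.9 CPM at 12 months and 11.3, 8.43 and 4.92 CPM at 24 months. Only the 24-month mice lay apart, all of them low. Psmd14 had a log2 fold change of -2.17 ± 0.25, and -0.54 ± 0.16 corrected (edgeR adjusted p = 1.4e-06 and 0.0079).

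The lid subunits Psmd12 and Psmd6 fell in both fits as well. Psmd12 had 49.6, 42.7 and 44.9 CPM at 3 months, 43.6, 42.9 and 46.7 CPM at 6 months, 41.2, 40.6 and 68.0 CPM at 12 months and 14.7, 12.7 and 8.89 CPM at 24 months (log2 fold change -1.91 ± 0.24, and -0.89 ± 0.17 corrected). Psmd6 had 63.0, 43.9 and 47.9 CPM at 3 months, 55.3, 46.1 and 49.3 CPM at 6 months, 42.9, 43.4 and 65.7 CPM at 12 months and 13.0, 15.8 and 18.0 CPM at 24 months (log2 fold change -1.73 ± 0.23, and -0.58 ± 0.19 corrected). In both genes the 24-month mice lay below all others and the 3 younger ages overlapped.

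Psmd11, a lid subunit known from human stem cells for promoting proteasome assembly, turned direction. It had 66.9, 64.5 and 68.4 CPM at 3 months, 62.5, 66.9 and 65.2 CPM at 6 months, 65.3, 66.2 and 63.5 CPM at 12 months and 42.4, 43.9 and 41.0 CPM at 24 months. Levels were nearly equal across the 9 younger mice and lower in all 24-month mice. The log2 fold change at 24 against 3 months was -0.65 ± 0.16 (edgeR adjusted p = 0.0014) directly and 1.85 ± 0.22 (edgeR adjusted p = 8.3e-06) corrected. Its GC content of 39.9% was among the lowest of the members. The ubiquitin receptor Psmd4 rose in the direct fit alone (0.88 ± 0.19), and the lid subunit Psmd8 rose directly (0.45 ± 0.17) and fell when corrected (-0.39 ± 0.13). The lid subunit Psmd13 had 0.38 ± 0.19 directly, which did not pass, and -0.50 ± 0.14 corrected, which did. It overlaps Sirt3 on the opposite strand by 342 bp. Psmd2, the other base scaffold, had 0.48 ± 0.25 directly and 0.30 ± 0.15 corrected. Psmd7, the lid partner of Psmd14, had -0.22 ± 0.25 directly and 0.18 ± 0.17 corrected. No fold of Psmd2 or Psmd7 passed the test.

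The direct folds of the members at 24 against 3 months ran from lower to higher with GC content, and in each of 3 ranges of GC content their median was nearer 0 than that of all genes. Below 45% GC, 8 of 11 members fell, where 92.5% of the 3683 tested genes in that range were called lower, and the median log2 fold change was -1.08 over the members and -2.55 over all genes. From 45 to 50%, 8 of 10 fell and 1 rose, where 68.5% of all genes were called lower and 10.9% higher, with medians of -0.92 over members and -1.40 over all genes. At 50% and above, 10 of 14 rose, near the 68.8% of all genes called higher, with medians of 0.76 over members and 1.34 over all genes. Psmc2 (-0.01), Psma2 (-0.51) and Psmd11 (-0.65), all poor in GC, lay far above the median of genes with like GC content. The correlation of fold and GC content was 0.68 over the 35 members and 0.78 over 15949 genes, all read from the same 6 libraries. In the corrected fit it was -0.30 over the members and 0.06 over all genes. Within the range below 45% GC, 6 of 11 members rose and 2 fell in the corrected fit, with a median of 0.60, where 20.4% of all genes in that range were called higher and 27.9% lower, with a median of -0.16.

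**Figure D4:**
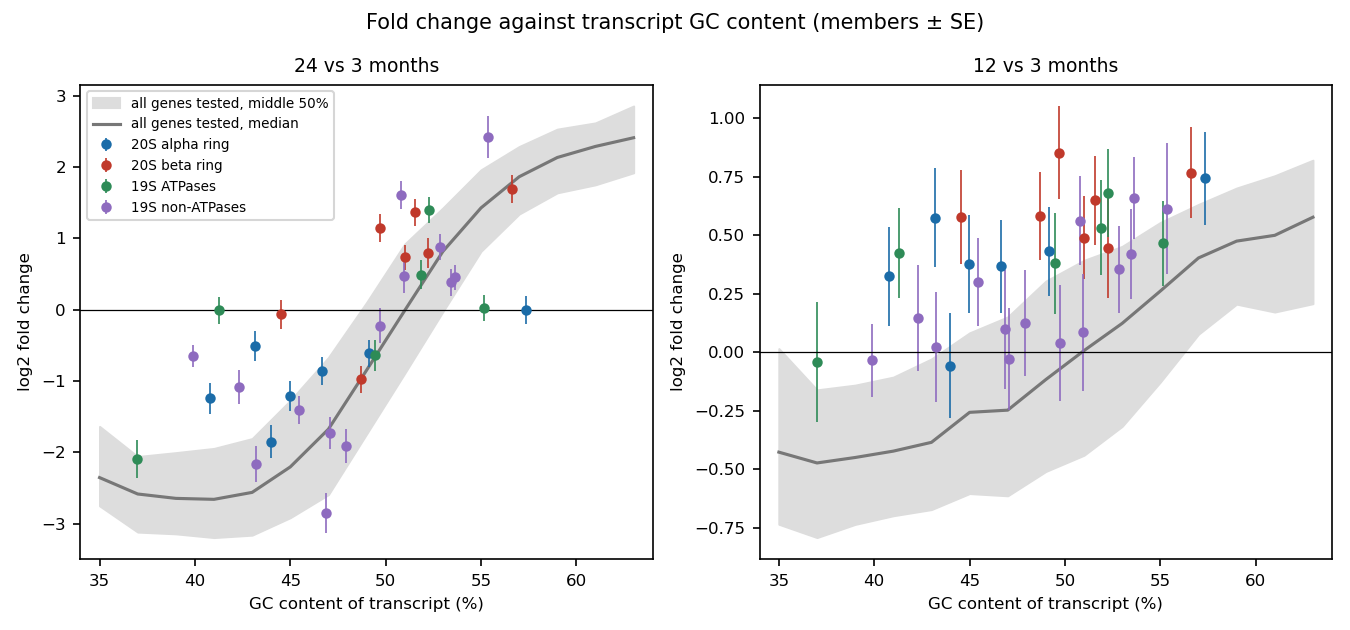
Log2 fold change of the direct fit against GC content of the transcript in percent, at 24 against 3 months (left) and 12 against 3 months (right). Points are members ± SE, coloured by subcomplex, the grey line is the median of all tested genes and the band holds their middle 50%. At 24 months the members run from low to high with GC content, but those poor in GC lie above the line, and at 12 months most members lie above it.

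With library totals in place of the scaling factors, the median log2 fold change at 24 against 3 months was -1.001 over all genes and -0.88 over the members, and 5 members rose and 21 fell. On that scale 26.4% of all tested genes were called higher and 53.2% lower. The 5 were Psmd3 (1.57), Psmb5 (0.93), Psmd9 (0.85), Psmc4 (0.67) and Psmb6 (0.63), which all rose in the direct and the corrected fit too. This scale lowers the folds of all genes by a like amount. Among members called in the direct fit or on this scale, the folds of Psmc3, Psmc5 and Psmd8, which were above 0 by less than that amount, fell below 0. Read against the median of all genes on each scale, the members' median was higher by 0.07 directly, 0.12 with library totals and 0.22 in the corrected fit.

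Promoter windows were searched for 3 motifs known from genes of this kind, since Nfe2l1 and Nfe2l2 act through the antioxidant response element. The windows are those of RefSeq on GRCm38.p6, from 250 bases before to 50 after the gene start, and were found for 29 of the 36 members. The element was searched as TGACNNNGC on both strands, which reads GCNNNGTCA on the other strand. It stood in 5 of 29 member genes (17.2%) and in 14.0% of all 27025 genes with a window. CCAAT, or ATTGG, stood in 12 of 29 members (41.4%) and in 41.1% of all genes. The site of nuclear respiratory factor 1, searched on both strands as GCGCA and GCGC with any base between them, stood in 6 of 29 members (20.7%) and in 5.19% of all genes. This motif is nearly its own mirror, so that a match can lie on both strands. The 5 member windows with the antioxidant response element are shown for the sequence around it, since they divide between members that rose and members that fell. Psmb5, Psmb6 and Psmd9 rose at 24 against 3 months in both fits, while Psmc6 fell in the direct fit and Psmd12 in both. Each is given 5′ to 3′ on the strand of its gene, up to the first base before the most upstream protein-coding start, with the motif in capitals. They lie at chr14:54618023-54618245 (minus strand, Psmb5), chr11:70525107-70525356 (plus, Psmb6), chr14:45329574-45329787 (plus, Psmc6), chr11:107479278-107479483 (plus, Psmd12) and chr5:123227940-123228189 (plus, Psmd9).
Psmb5: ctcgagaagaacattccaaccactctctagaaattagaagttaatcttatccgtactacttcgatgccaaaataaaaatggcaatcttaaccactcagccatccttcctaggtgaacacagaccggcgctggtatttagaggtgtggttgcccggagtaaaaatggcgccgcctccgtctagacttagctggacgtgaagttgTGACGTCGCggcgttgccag
Psmb6: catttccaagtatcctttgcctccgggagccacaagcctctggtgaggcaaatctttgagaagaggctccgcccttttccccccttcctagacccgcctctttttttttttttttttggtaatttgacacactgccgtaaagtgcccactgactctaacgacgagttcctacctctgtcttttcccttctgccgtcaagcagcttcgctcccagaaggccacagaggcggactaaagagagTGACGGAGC
Psmc6: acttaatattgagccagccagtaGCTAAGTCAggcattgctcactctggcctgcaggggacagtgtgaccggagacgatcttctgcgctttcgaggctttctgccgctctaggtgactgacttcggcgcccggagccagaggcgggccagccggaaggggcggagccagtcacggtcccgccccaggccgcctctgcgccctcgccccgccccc
Psmd12: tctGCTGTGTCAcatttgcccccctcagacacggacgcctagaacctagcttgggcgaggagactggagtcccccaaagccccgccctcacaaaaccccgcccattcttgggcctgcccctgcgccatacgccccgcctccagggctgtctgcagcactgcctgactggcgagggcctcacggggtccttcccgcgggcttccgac
Psmd9: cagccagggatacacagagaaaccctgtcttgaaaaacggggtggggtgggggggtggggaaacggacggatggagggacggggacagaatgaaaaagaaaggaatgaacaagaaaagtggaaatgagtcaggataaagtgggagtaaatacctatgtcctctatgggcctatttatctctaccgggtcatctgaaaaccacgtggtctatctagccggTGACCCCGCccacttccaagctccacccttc
The motif begins 47 bases before the RefSeq start in Psmb5, 9 in Psmb6 and 31 in Psmd9, and lies on the opposite strand 227 bases before the start in Psmc6 and 247 in Psmd12. A match describes the letters in the window and is no measure of binding.

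At 12 against 3 months the members moved to the higher side. In the direct fit 7 of 35 rose (20%), where 6.3% of all tested genes were called higher, and none fell, where 8.87% of all tested genes were called lower. The 7 were Psmb3, Psmb5, Psmb6 and Psmb7 of the beta ring, Psma7, Psmc4 and Psmd8. DESeq2 and limma voom also called none lower. In edgeR 17 of 35 members had an unadjusted p under 0.05, as did 5630 of all 16042 tested genes. The median log2 fold change was 0.42 over the members and -0.02 over all genes, and 31 of 35 members were above 0. With the correction 11 rose and none fell, where 10.3% of all genes were called higher and 8.4% lower, with medians of 0.30 over the members and 0.05 over all genes. Psmb3, Psmb5, Psmb7, Psmc4 and Psmd8 rose in both fits. Psma2, Psma3, Psmb1, Psmc2, Psmd5 and Psmd9 rose in the corrected fit alone, and Psma7 and Psmb6 in the direct fit alone.

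Psmb3 had the largest rise at 12 against 3 months in the direct fit. Its mice had 121, 131 and 149 CPM at 12 months and 88.9, 62.3 and 70.6 CPM at 3 months, and the ages did not overlap. The log2 fold change was 0.85 ± 0.20 (edgeR adjusted p = 0.015), and 0.77 ± 0.18 corrected (edgeR adjusted p = 0.010). In the corrected fit Psmc2 was above it, at 0.87 ± 0.16 (edgeR adjusted p = 0.0030). Psmb5, with the values given above, had 0.77 ± 0.19 (edgeR adjusted p = 0.021), and 0.37 ± 0.11 corrected (edgeR adjusted p = 0.031). Psma7 had 103, 71.2 and 75.7 CPM at 3 months, 107, 91.9 and 87.6 CPM at 6 months, 121, 136 and 162 CPM at 12 months and 78.2, 81.1 and 90.0 CPM at 24 months. It stood highest at 12 months and overlapped between 3 and 24 months, with a log2 fold change at 12 against 3 months of 0.74 ± 0.20 (edgeR adjusted p = 0.026) and 0.34 ± 0.17 corrected (edgeR adjusted p = 0.17). Of the members that rose at 12 months, Psmb7 fell at 24 months in both fits, while Psmb3, Psmb5 and Psmc4 rose at both ages in both fits.

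The count at 12 months rested on single mice. It was 0 without 3-month mouse 2 or mouse 3 and 12 without 3-month mouse 1. It was 2 without 12-month mouse 1, 1 without mouse 2 and 8 without mouse 3. The corrected count was 2 and 4 without 3-month mouse 2 and mouse 3, and 7 without 12-month mouse 2. Among the 3-month mice, mouse 1 had the highest level of 32 of 35 members and mouse 2 the lowest of 32. Over all tested genes, mouse 1 was highest for 43.5% and mouse 2 lowest for 34.5%. Among the 12-month mice, mouse 3 was highest for 22 of 35 members and lowest for 12, where it was highest for 43.0% and lowest for 44.8% of all tested genes. The mice of 3 months thus differed among themselves over most members.

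**Figure D5:**
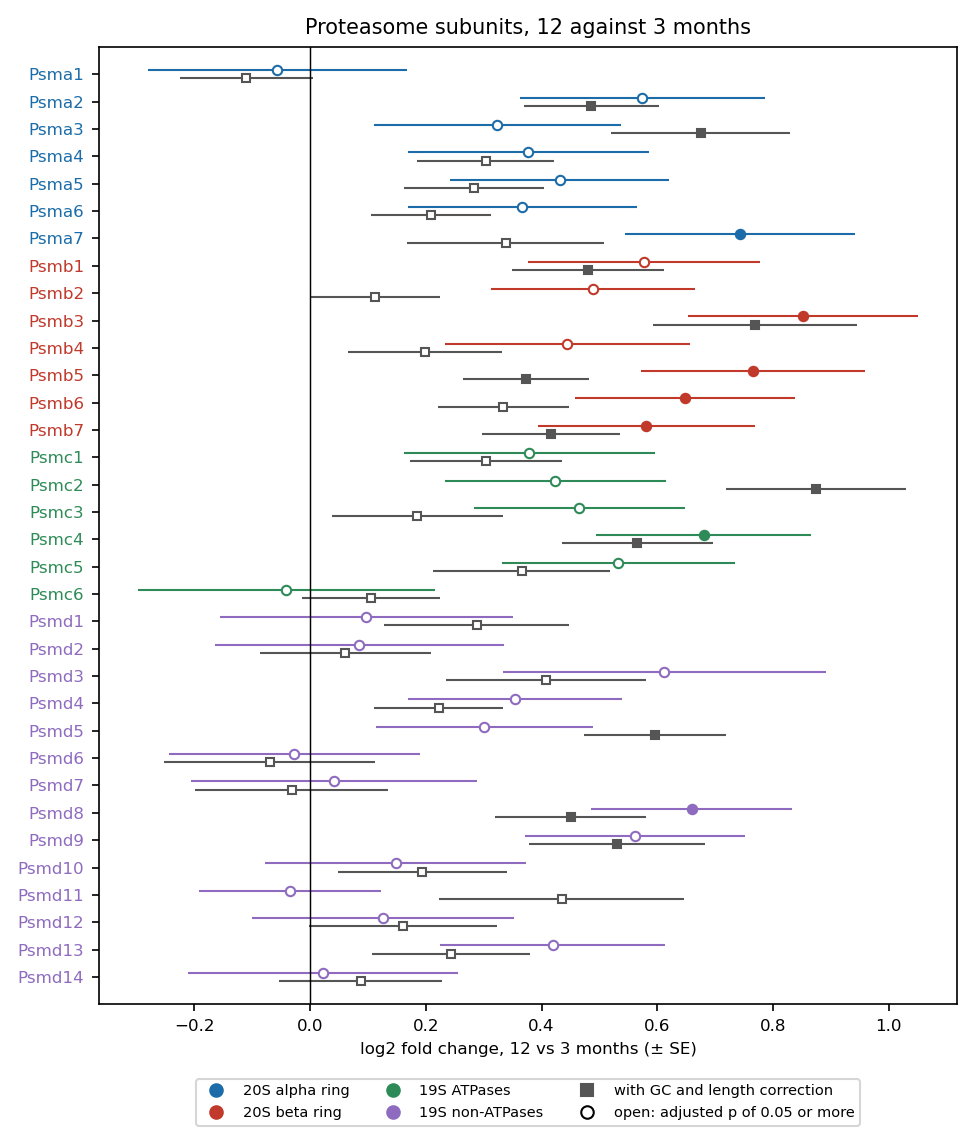
Log2 fold change at 12 against 3 months of 34 subunits, as estimate ± SE from the fits on all 12 libraries, with 3 mice an age. Symbols are as in the plot for 24 months. Most estimates lie between 0 and 0.85, all beta ring genes lie above 0 in both fits, and filled symbols mark the 7 direct and 11 corrected calls.

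At 6 against 3 months no member passed the test, which with 3 mice an age does not show that levels were equal. The edgeR test called 0 of 35 members and 0% of the 16042 genes, with 0 members and 267 genes at an unadjusted p under 0.05. DESeq2 and limma voom called 0 members as well. The corrected fit called 0 members and 0.00627% of all genes. Median folds of the members were -0.01 directly and 0.01 corrected, and single members lay between -0.42 and 0.20 in the direct fit.

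At 24 against 12 months most members fell in the direct fit. Of 35 members 6 rose and 20 fell, where 37.3% of all tested genes were called higher and 42.5% lower. In the corrected fit 10 rose and 13 fell, where the shares of all genes were 21.9% and 22.2%. Without 12-month mouse 1 the direct count that rose was 3. The alpha ring fell in 7 of 8 genes directly and in 3 of 8 when corrected, and 1 then rose. In the direct fit Psmd3 rose most (1.81 ± 0.29, and 0.46 ± 0.17 corrected), followed by Psmd9 (1.05 ± 0.19, and 0.98 ± 0.15 corrected) and Psmb5 (0.93 ± 0.19 directly). The corrected value of Psmb5, 0.11 ± 0.11, did not pass (edgeR adjusted p = 0.42). Psmd1 fell most in the direct fit (-2.95 ± 0.28, and -1.64 ± 0.18 corrected), followed by Psmd14 (-2.19 ± 0.25, and -0.63 ± 0.16) and Psmc6 (-2.05 ± 0.27, and -0.34 ± 0.13). The order differed in the corrected fit, where Psmc2 (1.71 ± 0.16) and Psmd11 (1.42 ± 0.22) rose most and Psma7 (-1.94 ± 0.18) fell most, ahead of Psmd1. This comparison uses the same 24-month mice as 24 against 3 months and the same 12-month mice as 12 against 3 months. Those 2 comparisons in turn share the 3-month mice, so the counts are not independent of one another.

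Genes that act on the proteasome were counted from 3 lists, against all tested genes, of which 38.2% rose and 44.6% fell directly, and 30.3% rose and 27.6% fell in the corrected fit. Of 18 activators, inhibitors, receptors and assembly factors, 6 rose and 9 fell at 24 against 3 months, with a median log2 fold change of -0.38, and 7 rose and 6 fell in the corrected fit, with a median of 0.15. These shares, 33.3% and 50% directly and 38.9% and 33.3% corrected, were near those of all genes. The members of smallest p that rose were Psme1, a subunit of the activator that opens the core in antigen processing (1.76 ± 0.20, and 0.23 ± 0.13 corrected), and Adrm1, a ubiquitin receptor of the cap (1.93 ± 0.26, and 0.38 ± 0.16 corrected). Those that fell were Usp14, a deubiquitinase bound to the cap (-2.93 ± 0.23, and -0.79 ± 0.16 corrected), and Zfand5, a proteasome activator (-2.49 ± 0.21, and -0.0011 ± 0.22 corrected). The corrected values of Psme1, Adrm1 and Zfand5 did not pass. Psme2, the partner subunit of Psme1, had -0.28 ± 0.18 directly, which did not pass, and fell in the corrected fit (-0.78 ± 0.12).

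Of 7 regulators of proteasome genes, 4 rose and 3 fell directly, with a median of 0.93, and 1 rose and 1 fell when corrected, with a median of 0.03. These are 57.1% and 42.9% directly and 14.3% each way corrected, where 1 gene of the list makes 14.3%. Nfe2l2 fell in both fits (-2.998 ± 0.36, and -1.64 ± 0.24 corrected), and Stat3, a transcription factor activated by cytokines, rose in both (0.93 ± 0.24, and 0.68 ± 0.12 corrected). Nfe2l1 rose in the direct fit (1.37 ± 0.22), and its corrected value of 0.20 ± 0.13 did not pass (edgeR adjusted p = 0.19). Keap1, which holds Nfe2l2 for degradation, rose by 1.85 ± 0.19 and Foxo4, a transcription factor, by 1.49 ± 0.21. Ddi2, the protease that activates Nfe2l1, fell (-1.91 ± 0.19), as did Ngly1, which removes sugars from Nfe2l1 (-2.58 ± 0.28). The corrected values of these 4 were -0.04, 0.03, 0.10 and -0.11, and none passed. Of 15 ubiquitin and shuttle genes, 6 rose and 7 fell directly, with a median of -0.30, and 6 rose and 3 fell when corrected, with a median of 0.21. Directly these are 40% and 46.7%, near the shares of all genes, and corrected they are 40% and 20%. Uba1, the main enzyme that activates ubiquitin, rose in both fits (2.42 ± 0.26, and 2.07 ± 0.24 corrected), as did Nploc4, a partner of the segregase Vcp (1.81 ± 0.20, and 1.00 ± 0.11 corrected). Ubqln1, a shuttle of ubiquitinated proteins, fell in both (-1.87 ± 0.17, and -0.57 ± 0.12 corrected). Ddi2, which is also counted here, fell in the direct fit.

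The authors' deposited table of fold changes and adjusted p-values gave like member counts at 24 against 3 months and more at 12 against 3 months. At an adjusted p under 0.05 the authors' deposited table listed 12 members higher and 15 lower at 24 against 3 months, 11 higher and 0 lower at 12 against 3 months, where the direct fit called 7 higher, and 0 in either direction at 6 against 3 months. No reads fell on the 4 proteasome pseudogenes in the table, and the handling of reads that fit several genes is not stated in the sources used here.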

How the data were processed

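RNA of 12 mouse lungs was measured by poly(A) RNA-seq (RNAlater, RNeasy and a NEBNext Ultra kit, per the labels' protocols). The submitters' processing notes name TopHat, STAR 2.5, HTSeq 0.6.1 and build mm10, without roles. Read counts per gene and library were deposited by the authors, were not normalized, and are the values tested. FPKM were deposited by the authors, and recomputing them from counts and lengths gave 235411 of 235411 values back within 1e-06. Signal columns deposited by the authors hold scaled means per age and were not used, and 2 of them, further 3-month means, were set aside. The authors also deposited log2 fold changes and p-values for 6, 12 and 24 against 3 months, with no tool named in the sources used here.

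Counts were filtered with filterByExpr (16042 genes left), scaled with TMM and tested with the edgeR 4.0.16 quasi-likelihood F test on all 12 libraries (limma 3.58.1, R 4.3.3), with Benjamini-Hochberg adjustment over all tested genes within a comparison. A gene was called at an adjusted p under 0.05. The corrected fit used as offset each library's regression of log2 CPM deviations (prior count 2) on natural splines of GC content (6 degrees of freedom) and log2 gene length (4), for 15949 genes. GENCODE M21 transcripts gave GC content for 36 of 36 members. For each gene it was that of the transcript nearest in length to the deposited gene length. Whether this is the transcript expressed in lung was not tested, and corrected folds depend on it. On data simulated for 24 against 3 months with a GC trend, the corrected fit recovered 36.4% of genes changed by 1 on the log2 scale and 89.0% of those changed by 2, and called 0.0258% of the unchanged ones (15728 genes in all). The direct fit called 64.0% of the unchanged genes on the same data. The simulated trend was a straight line on GC content without a length trend, so these rates need not hold for the real libraries. SE is the fold over the root of F.

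The members and lists were chosen with earlier results of these data known. Genes given in every library were the catalytic subunits, the 3 largest called folds each way in a comparison, up to 4 called alike in both fits each way and up to 4 that turned. From each list the 2 called genes of smallest p each way were named, and from the regulators also the other 3, added after their values were seen. Psme2 was likewise named after its values were seen. Alternatives were RLE size factors, DESeq2 1.42.0, limma voom, other filters, mouse number as a block, fewer libraries, correction on GC content alone, library totals and leaving out each mouse. Library totals and all variants of the corrected fit were added after seeing the data.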

Additional observations from a re-analysis of the deposited data

How the results depend on the processing

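At 24 against 3 months the count of members that fell was 16, and 10 with the GC and length correction (10 with the replicate block added) and 6 with correction on GC content alone, and of those that rose 11, and 5 with library totals. Leaving out each mouse gave 7 to 12 that rose, with 7 without 3-month mouse 3, and 15 to 16 that fell, and in the corrected fit 14 to 17 and 8 to 10. At 12 against 3 months 7 members rose, and 15 with DESeq2, 3 without a filter, 4 with the replicate block, 11 with the GC and length correction (11 with the block), 17 with GC content alone, 16 without the 24-month libraries and 2 with library totals. Leaving out each mouse gave 0 to 12, and 2 to 11 in the corrected fit, which gave 17 without the 24-month libraries. At 24 against 12 months 6 rose and 20 fell, 10 and 13 with the GC and length correction (9 and 13 with the block), 10 and 9 with GC content alone, and 1 and 25 with library totals, and leaving out each mouse gave 3 to 7 and 18 to 20. In the corrected fit it gave 7 to 10 and 9 to 13. At 6 against 3 months every alternative run gave 0 members. The labels do not say that a mouse number marks a shared origin, and same-number pairs had a median r of -0.05 and 4 of 18 exceeded 0.1. The block alone gave 11 and 15 members at 24 against 3 months.

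These members changed sign at 24 against 3 months and were called in at least 1 of the 2 fits compared. Psmd7 (-0.22, and 0.18 with the GC and length correction) and Psma8 (-1.08 and 0.60) also changed sign, without a call in either fit. With the GC and length correction, with the block added, and with GC content alone, the log2 folds were 0.74, 0.74 and 1.81 for Psma2, 1.18, 1.18 and 1.29 for Psma3, 0.057, 0.060 and 0.84 for Psma4, 0.083, 0.085 and 0.78 for Psma6, 1.16, 1.16 and 2.11 for Psmb1, 2.58, 2.58 and 2.49 for Psmc2, -1.24, -1.25 and -1.22 for Psmc3, 0.60, 0.60 and 0.53 for Psmd5, -0.39, -0.39 and -0.43 for Psmd8, 0.55, 0.55 and 1.32 for Psmd10, 1.85, 1.85 and 1.93 for Psmd11, and -0.50, -0.51 and -0.43 for Psmd13. With GC content alone Psma1 had 0.36, Psma5 0.12, Psmc6 0.34 and Psmd14 0.10, and at 24 against 12 months Psmb5 had -0.36. With library totals Psmc3 had -0.70, Psmc5 -0.27 and Psmd8 -0.29. The cause of these differences was not tested. Precision is limited by 3 mice an age. Depth limits Psma8 and Psmb11 most. Some other members also had low counts at 24 months, such as Psmd14 with 137, 116 and 42 reads and Psmd10 with 78, 114 and 52.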
